A study of Arabidopsis thaliana with 24 samples.

Results

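A set of 10 genes of glutamine, glutamate and asparagine metabolism was followed across the 8 groups of an Arabidopsis thaliana root experiment. They were taken by locus identifier from the count table, 10 of the 32833 genes it listed, and all 10 passed the filter on low counts that left 20546 genes for testing. The set held the cytosolic glutamine synthetase genes GLN1;1 (AT5G37600), GLN1;2 (AT1G66200), GLN1;3 (AT3G17820) and GLN1;4 (AT5G16570) and the plastid glutamine synthetase gene GLN2 (AT5G35630). It also held the NADH-dependent glutamate synthase gene GLT1 (AT5G53460), the asparagine synthetase genes ASN1 (AT3G47340) and ASN2 (AT5G65010), and the glutamate dehydrogenase genes GDH1 (AT5G18170) and GDH2 (AT5G07440).

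All 24 libraries were polyadenylated RNA from roots of the wild-type accession Col-0, in 8 groups of 3. Plants grew on medium adjusted to 6 or 60 mM KNO3, so nitrate and potassium changed together. At each KNO3 level and in each type of exposure, 1 group received 2.5 nM isoxaben, a herbicide that blocks cellulose synthesis, and 1 group a mock treatment. Long-term plants were on isoxaben or mock medium from the start. Shift plants were raised on a polyester mesh and transferred on day 5 onto isoxaben or mock medium at an unchanged KNO3 level. Every root sample was taken on day 6 after stratification. Shift and long-term groups therefore differed in mesh, transfer and time on the treatment together, which cannot be told apart. The labels number the replicates 1 to 3 but do not say that they came from separate cultures, so the p-values measure the spread between these samples.

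Glutamine synthetase joins ammonium to glutamate to make glutamine, and glutamate synthase passes the amide nitrogen of glutamine to 2-oxoglutarate, which returns glutamate for the next turn of the cycle. Asparagine synthetase moves amide nitrogen from glutamine to aspartate, giving asparagine, a nitrogen-rich compound used in transport and storage. Glutamate dehydrogenase catalyses a reversible reaction and in plants is known mainly for releasing ammonium and a carbon skeleton from glutamate when carbon is short. ASN1 is also known as DIN6, a gene induced in darkness and repressed by sugars, whereas ASN2 is known from Arabidopsis to respond to ammonium.

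The libraries held 18902538 to 20519913 counts. Chi-square per degree of freedom between replicates of a group ranged from 2.64 to 21.7, so no library was a copy of another of its own group within sampling noise, and the highest value belonged to replicates 1 and 2 of the long-term 60 mM isoxaben group. The summed level of 8 root markers was 6010 to 8838 CPM (counts scaled to library size) in all libraries and no root marker was at 0 in any of them. The summed level of 20 photosynthesis genes, which mark shoot tissue, was 182.9 to 869.6 CPM, with at most 3 of the 20 at 0 in a library. In these bulk samples fewer cells of a type and less RNA per cell cannot be told apart.

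Per kilobase of exon, the median level over the 24 libraries ran from 1081 CPM per kilobase for GLN1;2 to 0.955 for ASN1. Between them stood GLN1;1 at 444, GLN1;3 at 186, GLT1 at 165, GDH2 at 123, GLN2 at 80.6, ASN2 at 38.6, GDH1 at 15.3 and GLN1;4 at 5.44 CPM per kilobase. ASN1 was also the most variable member. Its 8 group means spanned 6.56 on the log2 CPM scale, against 0.93 for GLN1;4, 0.82 for GDH2 and 0.21 to 0.62 for the other 7. Over the 16205 tested genes whose mean reached 5 CPM in any group, the median of this span was 0.31 and its 99th percentile 2.88. Within groups the coefficient of variation of CPM averaged 63.9% for ASN1 and 4.23% to 11.3% for the other members.

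**Figure D1:**
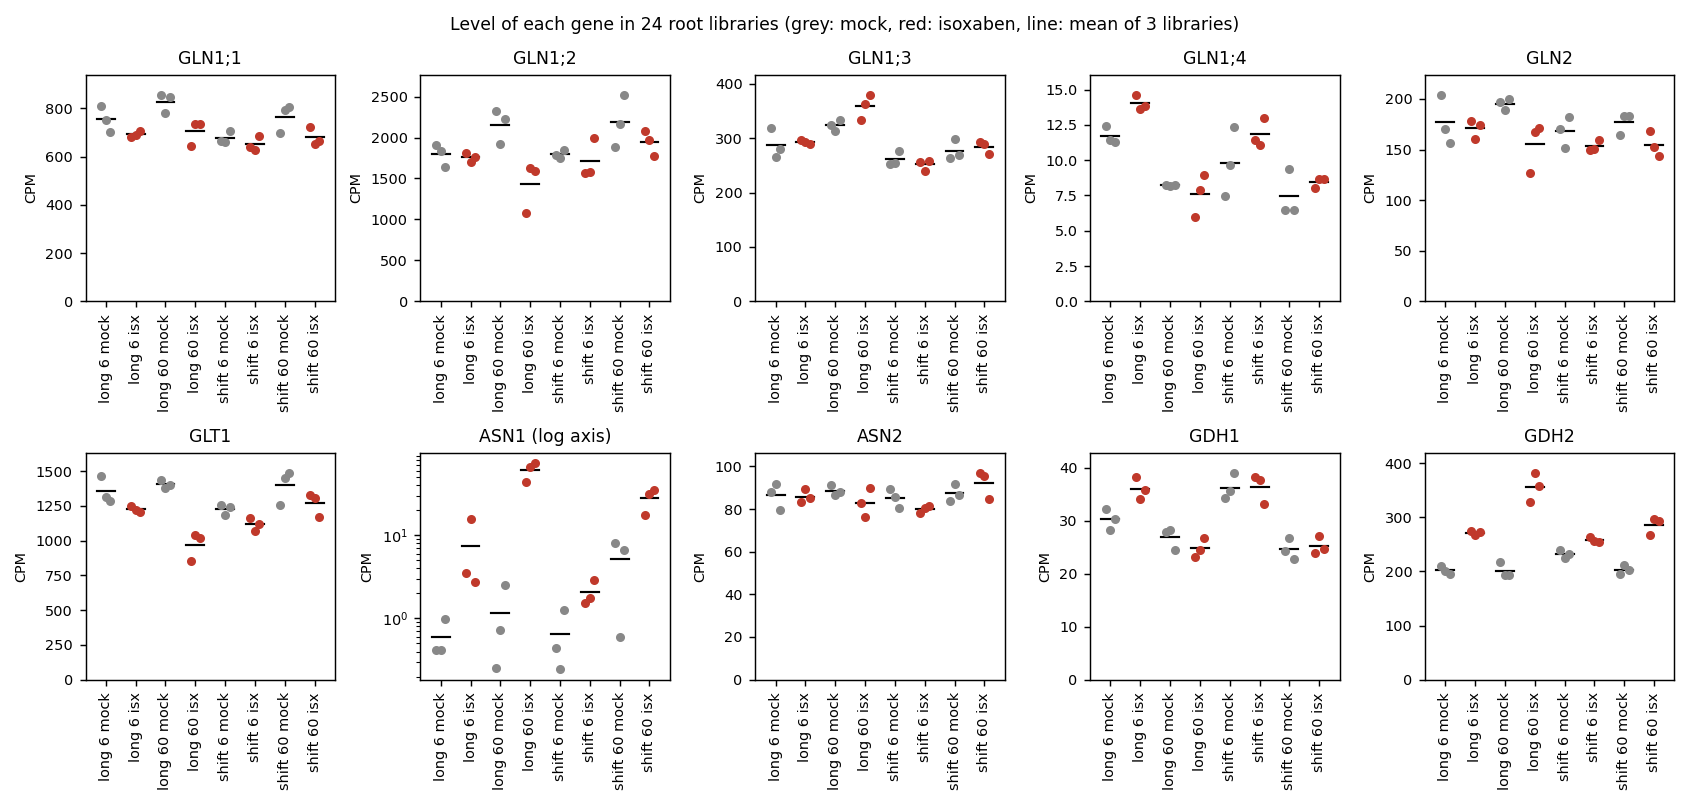
CPM of each of the 10 genes (vertical axes, a log axis for ASN1) in the 8 groups, with 1 point per library and a line at each group mean. The ASN1 mean is 0.605 CPM in long-term 6 mM mock roots and 61.4 CPM in long-term 60 mM isoxaben roots, while ASN2 stays between 76.4 and 96.7 CPM in every library.

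The asparagine synthetase pair and the glutamate dehydrogenase pair each held a member called under isoxaben and another that was not, and the 250 bases before their annotated starts are shown to set these paralogs side by side. The sequences are of the RefSeq assembly TAIR10.1, written 5′ to 3′ on the strand of the gene. Capitals mark matches to the G-box CACGTG or, where no G-box was found, to its ACGT core. Both motifs read the same on both strands and every G-box holds an ACGT core, so the matches overlap. They cover ASN1 at chr3:17441432-17441681 on the minus strand, ASN2 at chr5:25968785-25969034 on the plus strand, GDH1 at chr5:6005785-6006034 on the plus strand and GDH2 at chr5:2355509-2355758 on the plus strand.
ASN1: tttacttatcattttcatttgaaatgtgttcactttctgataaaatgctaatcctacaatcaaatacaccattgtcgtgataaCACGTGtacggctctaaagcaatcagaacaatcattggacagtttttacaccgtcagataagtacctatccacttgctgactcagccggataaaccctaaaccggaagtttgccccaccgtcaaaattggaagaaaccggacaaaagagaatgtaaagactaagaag
ASN2: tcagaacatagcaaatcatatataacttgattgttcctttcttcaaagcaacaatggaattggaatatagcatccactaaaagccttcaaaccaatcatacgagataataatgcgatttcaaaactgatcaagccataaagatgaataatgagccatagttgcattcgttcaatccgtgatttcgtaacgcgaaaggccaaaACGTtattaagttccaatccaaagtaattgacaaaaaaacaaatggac
GDH1: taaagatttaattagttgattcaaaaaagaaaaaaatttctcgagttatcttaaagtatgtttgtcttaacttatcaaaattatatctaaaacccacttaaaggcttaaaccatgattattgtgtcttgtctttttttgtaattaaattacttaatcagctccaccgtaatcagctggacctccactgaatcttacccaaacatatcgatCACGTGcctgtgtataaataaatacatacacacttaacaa
GDH2: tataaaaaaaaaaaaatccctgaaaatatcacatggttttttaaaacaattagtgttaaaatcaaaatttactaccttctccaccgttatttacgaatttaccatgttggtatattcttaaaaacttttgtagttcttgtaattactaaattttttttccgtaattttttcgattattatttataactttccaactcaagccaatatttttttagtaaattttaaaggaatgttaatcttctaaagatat

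The G-box was present in the ASN1 window, 167 bases before the start, and in the GDH1 window, 40 bases before the start. The ASN2 window held an ACGT core without a G-box, and these letters were absent from the GDH2 window. Of 27443 promoters of protein-coding genes with the same length, 6.49% held CACGTG and 44.1% held ACGT. A further motif, ACTCAT, the hexamer known from the Arabidopsis ProDH promoter, was searched on both strands, overlaps neither of the others and was in 12.3% of the promoters. Among the 10 members it was found only in the GLN1;3 window. These matches describe letters and not binding.

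In TAIR10.1, ASN1 lies on chromosome 3 from 17437840 to 17441431 on the minus strand and ASN2 on chromosome 5 from 25969035 to 25972575 on the plus strand. GDH1 lies on chromosome 5 from 6006035 to 6008726 and GDH2 on the same chromosome from 2355759 to 2358241, both on the plus strand. GLT1 spans chromosome 5 from 21700187 to 21710296 on the plus strand. GLN1;1 is on chromosome 5 from 14933286 to 14935885, GLN1;4 on chromosome 5 from 5421589 to 5424749 and GLN1;2 on chromosome 1 from 24655115 to 24657703, all on the minus strand. GLN1;3 is on chromosome 3 from 6097201 to 6099595 and GLN2 on chromosome 5 from 13830429 to 13833542, both on the plus strand.

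The closest pair of coding sequences was GLN1;1 and GLN1;2, with 87.5% identical bases. The other cytosolic glutamine synthetase pairs had 76.5% to 79.3%, ASN1 and ASN2 71.0%, and GDH1 and GDH2 74.1%. No 50-base exon window of a member recurred elsewhere in the genome, except 0.709% of the windows of GDH1. GDH1 overlaps AT5G18180 on the opposite strand by 166 bases, but that gene had only 10 to 29 counts in a library against 440 to 805 for GDH1. The 11-base overlap of ASN1 with AT3G47341 involved a partner with at most 1 count.

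ASN1 was the member with the widest response to isoxaben. In long-term mock roots at 60 mM KNO3 it was measured at 0.253, 0.723 and 2.50 CPM, from 5, 14 and 48 counts. In long-term isoxaben roots at 60 mM it reached 43.5, 66.8 and 73.8 CPM, from 835, 1201 and 1397 counts. The ranges did not overlap, and the group means were 1.16 ± 1.19 and 61.4 ± 15.9 CPM (SD, n = 3 each). The log2 difference was 5.73 with a standard error (SE) of 0.75, a 53.1-fold rise (edgeR quasi-likelihood test, adjusted p = 1.08e-05). Across fits that each left out 1 library, the log2 difference ran from 5.25 without mock replicate 1 to 6.96 without mock replicate 3.

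At 60 mM in the shift groups ASN1 was at 8.12, 0.600 and 6.66 CPM in mock roots and at 17.5, 31.6 and 35.2 CPM in isoxaben roots. All 3 isoxaben libraries were above all 3 mock libraries, and mock replicate 2 was far below the other mock libraries. ASN1 rose 5.46-fold (log2 difference 2.45, SE 0.60, edgeR adjusted p = 0.0104). That call was lost when only the compared groups entered the fit, where the adjusted p was 0.172.

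At 6 mM KNO3 the ASN1 values were small. Long-term mock roots had 0.414, 0.418 and 0.982 CPM and long-term isoxaben roots 3.49, 15.8 and 2.74 CPM. The ranges were apart, but isoxaben replicate 2 was well above its replicates and the difference missed the threshold (log2 difference 3.59, SE 1.03, edgeR adjusted p = 0.0514). With DESeq2 the adjusted p was 0.00144, and without isoxaben replicate 2 the edgeR log2 difference was 2.35 with an adjusted p of 0.336. In the shift groups mock roots had 0.442, 0.244 and 1.26 CPM and isoxaben roots 1.54, 1.75 and 2.89 CPM, again without overlap (log2 difference 1.65, SE 1.25, edgeR adjusted p = 0.732).

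ASN2, the second asparagine synthetase gene, was called in none of the 12 comparisons by edgeR. At 60 mM it was at 91.3, 86.6 and 88.0 CPM in long-term mock roots and at 82.6, 76.4 and 89.8 CPM in long-term isoxaben roots, with overlapping ranges (log2 difference -0.10, SE 0.07, adjusted p = 0.300). In the shift groups at 60 mM its means were 87.3 and 92.4 CPM in mock and isoxaben roots. Per length, ASN1 was 1.05% ± 1.07 of the sum of ASN1 and ASN2 in long-term 60 mM mock roots and 37.1% ± 6.29 in long-term 60 mM isoxaben roots (SD, n = 3 each). In the shift groups at 60 mM its share was 4.56% ± 3.57 and 19.7% ± 6.31. Both comparisons gave an exact two-sided permutation p of 0.1, the smallest that 3 against 3 libraries allow, which became 0.16 after adjustment over the 16 share and ratio comparisons made.

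GDH2 was the most regular member in its response. At 60 mM its level was 217, 194 and 194 CPM in long-term mock roots and 329, 381 and 358 CPM in long-term isoxaben roots, with no overlap. It rose 1.77-fold (log2 difference 0.82, SE 0.06, edgeR adjusted p = 3.08e-11). In the shift groups at 60 mM it went from 195, 212 and 203 CPM to 267, 297 and 293 CPM (log2 difference 0.49, SE 0.06, edgeR adjusted p = 9.90e-07).

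In long-term roots at 6 mM GDH2 rose from 210, 201 and 194 CPM to 275, 268 and 273 CPM (log2 difference 0.43, SE 0.06, edgeR adjusted p = 2.44e-05). In shift roots at 6 mM the values were 240, 225 and 232 CPM in mock and 263, 257 and 255 CPM in isoxaben libraries. These ranges were apart too, but the difference did not pass the test (log2 difference 0.15, SE 0.06, edgeR adjusted p = 0.372). Ordered by mean, the long-term 60 mM isoxaben group was the highest of the 8 and did not overlap the next, shift 60 mM isoxaben. The 3 lowest groups, long-term 60 mM mock, long-term 6 mM mock and shift 60 mM mock, did not differ beyond their spread.

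GDH1, which encodes the other main subunit of the enzyme, was called in none of the 4 isoxaben effects. Long-term 60 mM roots had 27.9, 28.3 and 24.5 CPM under mock and 23.1, 24.5 and 26.8 CPM under isoxaben, with overlapping ranges (log2 difference -0.12, SE 0.08, edgeR adjusted p = 0.318). At 6 mM long-term isoxaben libraries, with 38.3, 34.1 and 35.9 CPM, were all above the mock libraries, with 32.2, 28.3 and 30.3 CPM. This log2 difference of 0.25 (SE 0.08) had an edgeR adjusted p of 0.0655, and of 0.0257 with only the compared groups in the fit. The per-length ratio of GDH2 to GDH1 was 6.88 ± 0.523 in long-term 60 mM mock roots and 13.2 ± 1.02 in long-term 60 mM isoxaben roots (SD, n = 3 each). In the shift groups at 60 mM it was 7.59 ± 0.516 and 10.4 ± 0.429. The ratios did not overlap in either case, with the exact permutation p at its smallest value of 0.1. At 6 mM the long-term ratios were apart too, at 6.13 ± 0.336 under mock and 6.92 ± 0.309 under isoxaben (exact permutation p = 0.1). In shift roots at 6 mM the ratios overlapped (exact permutation p = 0.3).

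**Figure D2:**
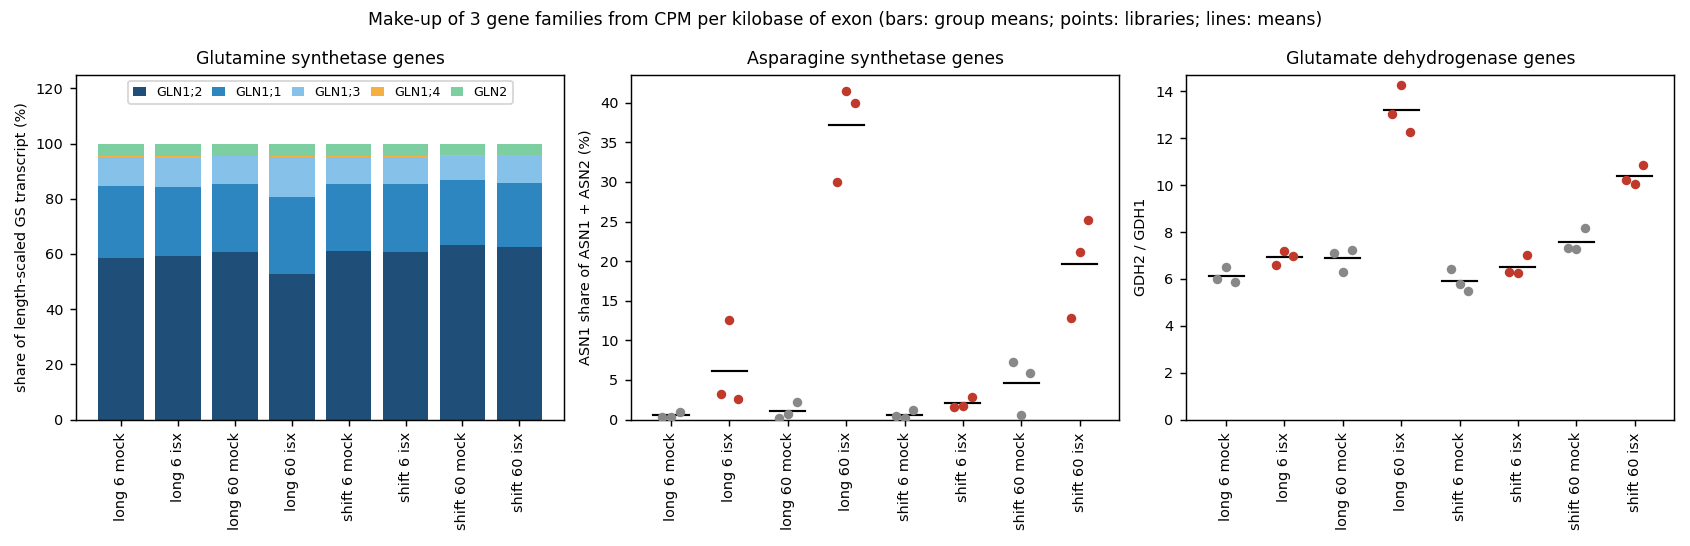
Make-up of 3 families from CPM per kilobase of exon. The first panel gives mean shares (%) of the 5 glutamine synthetase genes, the second the ASN1 share (%) of ASN1 plus ASN2 and the third the ratio of GDH2 to GDH1, with points for libraries (red for isoxaben) and lines for means. Long-term 60 mM isoxaben roots have the highest ASN1 share, 37.1%, the highest GDH2 to GDH1 ratio, 13.2, and the lowest GLN1;2 share, 52.7%.

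GLT1, the glutamate synthase gene that works with NADH and is a form known from roots, moved the other way. Long-term 60 mM mock roots had 1434, 1377 and 1404 CPM and long-term 60 mM isoxaben roots 855, 1043 and 1016 CPM. Every isoxaben library was below every mock library, and GLT1 fell to 0.691 of the mock level (log2 difference -0.53, SE 0.08, edgeR adjusted p = 2.13e-06). This group mean was the lowest of the 8 and did not overlap the next, shift 6 mM isoxaben with 1119 ± 46.3 CPM. The other 3 isoxaben effects on GLT1 were log2 differences of -0.14 each with adjusted p of 0.281 to 0.588, although ranges were apart in both 6 mM comparisons. GLT1 shares 127 bases with AT5G53470 on the same strand, whose 293 to 387 counts were small beside its 16396 to 30090.

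GLN1;2, the most abundant member and a glutamine synthetase form known in Arabidopsis to respond to nitrogen supply, fell in the same comparison. It was at 2324, 1918 and 2225 CPM in long-term 60 mM mock roots and at 1083, 1629 and 1595 CPM in isoxaben roots. The ranges were apart and isoxaben replicate 1 was the lowest of the 24 libraries (log2 difference -0.59, SE 0.13, edgeR adjusted p = 0.00112). Without that library the log2 difference was -0.42 and the adjusted p 0.00448.

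GLN1;1, a cytosolic form of high affinity for ammonium, fell from 855, 779 and 846 to 644, 735 and 737 CPM (log2 difference -0.23, SE 0.07, edgeR adjusted p = 0.0119). GLN2, whose product works in plastids and is known best from leaves, fell from 197, 189 and 200 to 127, 167 and 171 CPM (log2 difference -0.33, SE 0.10, edgeR adjusted p = 0.0104). In both genes isoxaben replicate 1 was the lowest of these 6 libraries. Without it the calls were lost, with log2 differences of -0.17 for GLN1;1 (edgeR adjusted p = 0.0854) and -0.21 for GLN2 (edgeR adjusted p = 0.0835), and the GLN1;1 call was also lost without mock replicate 1 (adjusted p = 0.0543). The summed photosynthesis genes were at 183, 679 and 244 CPM in isoxaben replicates 1 to 3 and at 532, 757 and 642 CPM in the mock replicates. Their part in the GLN2 difference was not tested.

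GLN1;3 and GLN1;4 were not called in this comparison. GLN1;3, a cytosolic form of low affinity for ammonium, had 324, 314 and 332 CPM in long-term 60 mM mock roots and 334, 363 and 379 CPM in isoxaben roots. The ranges were just apart and the difference missed the threshold (log2 difference 0.15, SE 0.07, edgeR adjusted p = 0.0892), though it passed without isoxaben replicate 1 (0.20, adjusted p = 0.0337). GLN1;4, the least abundant of the glutamine synthetase members, had 8.23, 8.16 and 8.23 CPM and 5.94, 7.90 and 8.93 CPM, which overlapped (log2 difference -0.11, SE 0.16, edgeR adjusted p = 0.639). The SE was larger than the difference, so neither a fall nor its absence is shown. Without isoxaben replicate 1 the GLN1;4 log2 difference was 0.04.

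Summed per length over the 5 genes, glutamine synthetase transcript was 2105 ± 159 CPM per kilobase in long-term 60 mM mock roots and 1605 ± 241 in isoxaben roots (SD, n = 3 each). GLN1;2 made up 60.7% ± 1.46 of it in mock roots and 52.7% ± 3.74 in isoxaben roots, and GLN1;3 made up 9.91% ± 0.561 and 14.5% ± 1.48. Neither share overlapped between the groups, and each gave the smallest exact permutation p of 0.1. In the other 7 groups the mean GLN1;2 share was between 58.6% and 63.3%. The GLN1;3 share was apart in shift 60 mM roots too, at 8.77% ± 0.956 under mock and 9.945% ± 0.293 under isoxaben (exact permutation p = 0.1). At 6 mM it overlapped in both exposures.

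Counted over the set, long-term isoxaben at 60 mM KNO3 called 6 of the 10 members, ASN1 and GDH2 higher and GLN1;1, GLN1;2, GLN2 and GLT1 lower, where 31.9% of all tested genes were called, 16.0% higher and 15.8% lower. The ranges of 7 members did not overlap, against 41.9% of all tested genes. The median log2 difference of the 10 was -0.12, beside 0.01 over all genes tested. At 60 mM in the shift groups 2 of 10 were called, ASN1 and GDH2, both higher, with 12.9% of all genes called and 7.35% called higher. Long-term isoxaben at 6 mM called only GDH2, 1 of 10, beside 5.69% of all genes. The shift at 6 mM called 0 of 10 with edgeR and 0 with DESeq2, 1 of 10 had an unadjusted p under 0.05, and 0.949% of all genes were called. In the last 3 comparisons the ranges of 2, 5 and 3 members did not overlap, where 24.9%, 23.9% and 15.5% of all genes did not. The members were chosen with earlier results of these data known. Their counts therefore give no independent test against the shares of all genes.

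Some lists of root tissue markers also differed between mock and isoxaben roots. In long-term roots at 60 mM the 3 xylem markers summed to 202 to 220 CPM under mock and 96.8 to 117 CPM under isoxaben, and the 4 endodermis markers to 432 to 517 CPM and 182 to 277 CPM. The 3 root hair markers summed to 131 to 150 CPM and 218 to 251 CPM, while the 5 phloem markers overlapped at 116 to 132 and 104 to 130 CPM. In the shift at 60 mM the endodermis markers were at 308 to 368 CPM under mock and 143 to 206 CPM under isoxaben, and the xylem markers overlapped at 169 to 209 and 185 to 216 CPM. The root hair and phloem markers overlapped there too. In long-term roots at 6 mM, where GDH2 was called, all 4 lists were apart. The endodermis markers were at 303 to 335 CPM under mock and 402 to 441 CPM under isoxaben, which is the opposite order to that at 60 mM, and the xylem markers at 182 to 218 and 154 to 160 CPM. The root hair markers were at 124 to 148 and 169 to 180 CPM and the phloem markers at 137 to 140 and 148 to 154 CPM. In shift roots at 6 mM, where no member was called, the endodermis markers were apart, at 261 to 317 and 318 to 381 CPM. The xylem, root hair and phloem markers overlapped in that comparison. No marker of these 4 lists was at 0 in any library. Their part in the member differences was not tested.

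**Figure D3:**
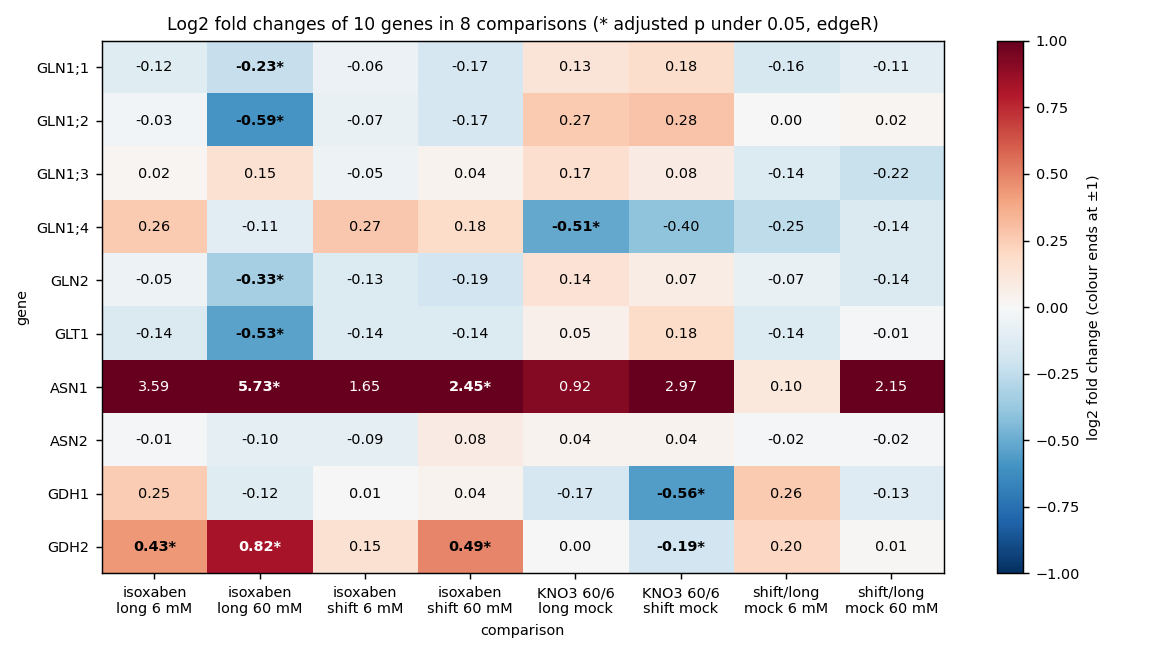
Log2 differences of the 10 genes (rows) in the comparisons (columns), coloured by size, with marks on the values that pass an edgeR adjusted p under 0.05. Long-term isoxaben at 60 mM has the most called members, 6, and ASN1 and GDH2 are the members called higher in both 60 mM isoxaben comparisons.

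The effect of isoxaben was next compared between KNO3 levels, as the difference of the log2 differences. In the long-term groups 4 of 10 members were called, beside 11.8% of all genes. The isoxaben effect at 60 minus that at 6 mM was 0.39 for GDH2 (SE 0.09, edgeR adjusted p = 0.00248) and -0.39 for GLT1 (SE 0.11, edgeR adjusted p = 0.0141). Both passed in all 17 alternative fits. The same difference was -0.56 for GLN1;2 (SE 0.18, edgeR adjusted p = 0.0493) and -0.37 for GDH1 (SE 0.12, edgeR adjusted p = 0.0366). The GLN1;2 call was lost in 12 of 17 alternative fits, with a highest adjusted p of 0.124, and the blocked fit, with replicate number as a term, gave 0.0543. The GDH1 call was lost in 7 of 17, up to 0.106. For ASN1 the difference was 2.14 with an adjusted p of 0.524 and became 3.38 without long-term 6 mM isoxaben replicate 2, and it was called in none of the fits that left out 1 library.

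In the shift groups the isoxaben effect depended on KNO3 for 1 of 10 members, GDH2, by 0.34 (SE 0.09, edgeR adjusted p = 0.0217), where 3.50% of all genes were called. It was lost in 5 of 17 alternative fits, up to an adjusted p of 0.0692. For ASN1 the difference was 0.80 with an adjusted p of 0.890, and it was -0.11 without shift 6 mM mock replicate 3.

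Between exposures at 60 mM, 2 of 10 members were called, beside 11.5% of all genes. The long-term isoxaben effect minus the shift effect was 0.33 for GDH2 (SE 0.09, edgeR adjusted p = 0.0106) and -0.39 for GLT1 (SE 0.11, edgeR adjusted p = 0.0134). With only the compared groups in the fit the adjusted p were 0.0600 and 0.0557, and the GLT1 call was also lost without shift mock replicate 1 (0.0531). For ASN1 this difference was 3.28 (SE 1.06) with an edgeR adjusted p of 0.0564, which became 0.0454 without long-term mock replicate 3 and 0.0143 without shift mock replicate 2. At 6 mM 0 of 10 were called by edgeR or DESeq2, 2 of 10 had an unadjusted p under 0.05, and 0.263% of all genes were called.

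KNO3 supply was compared in mock roots. The median absolute log2 difference between 60 and 6 mM was 0.155 over the members and 0.112 over all genes in long-term roots, and 0.189 and 0.113 in shift roots. An unadjusted edgeR p under 0.05 was reached by 2 of 10 members in long-term and 7 of 10 in shift roots. The share of all genes under this unadjusted threshold was not computed, so these counts cannot be set against it. These comparisons share the mock libraries with the isoxaben effects above. In long-term mock roots 1 of 10 was called, beside 6.77% of all genes. It was GLN1;4, with 12.4, 11.4 and 11.3 CPM at 6 mM and 8.23, 8.16 and 8.23 CPM at 60 mM, ranges that did not overlap (log2 difference -0.51, SE 0.15, edgeR adjusted p = 0.0366). That call was lost when any of the 6 libraries was left out, with adjusted p from 0.0689 to 0.137. In the shift mock roots GLN1;4 was at 7.46, 9.63 and 12.3 CPM at 6 mM and 6.45, 9.40 and 6.46 CPM at 60 mM, which overlapped (log2 difference -0.40, SE 0.15, edgeR adjusted p = 0.115).

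In shift mock roots 2 of 10 were called, both lower at 60 mM, beside 8.20% of all genes. GDH1 went from 34.2, 35.6 and 39.0 CPM at 6 mM to 24.4, 26.8 and 22.7 CPM at 60 mM (log2 difference -0.56, SE 0.08, edgeR adjusted p = 4.85e-05). GDH2 went from 240, 225 and 232 to 195, 212 and 203 CPM (log2 difference -0.19, SE 0.06, edgeR adjusted p = 0.0478). The GDH2 call was lost in 8 of 11 alternative fits, the blocked fit with an adjusted p of 0.0589 among them and the highest being 0.193. In long-term mock roots GDH1 had a log2 difference of -0.17 (SE 0.08, adjusted p = 0.263). ASN1 at 60 minus 6 mM had a log2 difference of 2.97 in shift mock roots (SE 1.05, edgeR adjusted p = 0.104), with overlapping ranges. It was past the threshold with DESeq2 (0.0121) and in edgeR without shift 60 mM mock replicate 2 (0.0316).

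In mock roots GLN1;2 had higher values at 60 than at 6 mM that did not pass the test. Its long-term libraries had 1913, 1833 and 1635 CPM at 6 mM against the 1918 to 2324 CPM given above for 60 mM (log2 difference 0.27, SE 0.13, edgeR adjusted p = 0.267). In the shift the means were 1797 ± 46.0 and 2188 ± 317 CPM (log2 difference 0.28, SE 0.13, edgeR adjusted p = 0.209). Ranges were apart in both. With only the compared groups in the fit, the long-term difference passed with an adjusted p of 0.0395. Over the 10 members, ranges did not overlap for 2 in the long-term and 3 in the shift comparison, against 27.1% and 23.3% of all genes.

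Shift and long-term mock roots were compared at each KNO3 level. At 6 mM 0 of 10 were called by edgeR or DESeq2, with 4 of 10 at an unadjusted p under 0.05, and 0.642% of all genes were called. The median absolute log2 difference at 6 mM was 0.14 over the members and 0.0832 over all genes tested, and at 60 mM 0.12 and 0.102. At 60 mM edgeR called 0 of 10, with 2 of 10 at an unadjusted p under 0.05, beside 3.30% of all genes. DESeq2 called 1, GLN1;3, with a log2 difference of -0.22 and an adjusted p of 0.0305, where edgeR gave 0.0600. GLN1;3 was at 324, 314 and 332 CPM in long-term and at 263, 298 and 270 CPM in shift mock roots, without overlap. The ranges of 3 members at 6 mM and 2 at 60 mM did not overlap, against 13.4% and 21.8% of all genes.

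Other genes of the pathway were read from 4 lists, chosen for their function but with earlier results of these data known. The called counts of these lists are therefore descriptive and give no independent test against the shares of all genes. Of 5 further family members, GLN1;5, the ferredoxin-dependent glutamate synthases GLU1 and GLU2, ASN3 and GDH3, long-term isoxaben at 60 mM called 2 higher and 0 lower, with a median log2 difference of 0.04 over the 5. Of all genes tested, this comparison called 16% higher and 15.8% lower, with a median log2 difference of 0.0088. ASN3 rose from 48.9 ± 2.04 to 54.6 ± 4.41 CPM (log2 difference 0.16, SE 0.06, edgeR adjusted p = 0.0387). GDH3, a further glutamate dehydrogenase gene, rose from 0.376 ± 0.192 to 1.19 ± 0.0782 CPM (log2 difference 1.65, SE 0.43, edgeR adjusted p = 0.00372). It is named here after its values were seen, since its level is below the 5 CPM set for naming. GDH3 overlaps AT3G03920 on the opposite strand and 0.883% of its exon windows recur elsewhere, so its low counts are uncertain. In the other 3 isoxaben effects edgeR called 0 of these 5, and 0, 0 and 1 had an unadjusted p under 0.05 in long-term 6 mM, shift 6 mM and shift 60 mM. Of all genes tested, 5.69%, 0.949% and 12.9% were called in these comparisons, in the same order.

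Of 25 tested enzymes linked to glutamate and aspartate, from a list of 26, long-term isoxaben called 9 higher and 3 lower at 60 mM and 5 higher and 2 lower at 6 mM. In the shift it called 7 higher and 2 lower at 60 mM and 1 higher and 1 lower at 6 mM. Of all genes tested, 31.9% and 5.69% were called in the long-term and 12.9% and 0.949% in the shift comparisons at 60 and 6 mM. The median log2 difference of the list was -0.0095 in long-term and 0.07 in shift roots at 60 mM, beside 0.0088 and -0.0026 over all genes tested. ProDH1, the proline dehydrogenase that starts the conversion of proline to glutamate, rose in all 4. Its level went from 112 ± 15.5 to 411 ± 50.7 CPM in long-term 60 mM roots (log2 difference 1.88, SE 0.13, edgeR adjusted p = 1.76e-10) and from 90.7 ± 13.8 to 498 ± 90.01 CPM in shift 60 mM roots (2.46, SE 0.13, edgeR adjusted p = 1.48e-11).

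At 6 mM ProDH1 rose from 194 ± 15.7 to 413 ± 12.0 CPM in long-term roots and from 185 ± 9.31 to 394 ± 19.1 CPM in shift roots, a log2 difference of 1.09 in each. The enzyme that acts in the opposite direction, from glutamate to proline, is encoded by P5CS1. P5CS1 fell from 53.2 ± 2.77 to 34.1 ± 2.65 CPM in long-term 6 mM roots (log2 difference -0.64, SE 0.08, edgeR adjusted p = 3.67e-06) and from 96.3 ± 1.89 to 50.7 ± 3.12 CPM in shift 60 mM roots (log2 difference -0.93, SE 0.08, edgeR adjusted p = 9.76e-10). P5CS1 overlaps AT2G39795 on the opposite strand and the counting strand is not given in the sources used here, so its counts are uncertain. ASPGB1, an asparaginase that releases ammonium from asparagine, rose in 3 of the 4 isoxaben effects. At 60 mM it went from 10.9 to 18.7 CPM in the long-term (log2 difference 0.77, edgeR adjusted p = 1.36e-07) and from 11.0 to 16.5 CPM in the shift groups (0.58, edgeR adjusted p = 3.14e-05), and in long-term 6 mM roots, where ASN1 was not called, from 17.2 to 22.8 CPM (0.40, edgeR adjusted p = 0.00345).

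ASN1 belongs by name to the dark-inducible genes, and 13 other genes of darkness and sugar starvation with their bZIP factors were read beside it. Isoxaben called 7 higher and 0 lower in long-term 60 mM roots, 5 higher and 0 lower in shift 60 mM roots and 2 higher and 1 lower in long-term 6 mM roots. Of all genes tested, 16.0% were called higher in long-term 60 mM roots and 7.35% in shift 60 mM roots. In either direction, 5.69% were called in long-term and 0.949% in shift roots at 6 mM. In shift 6 mM roots edgeR called 0 of 13, with 3 at an unadjusted p under 0.05 and 1 called by DESeq2. The list's median log2 difference was 0.35 in long-term and 0.24 in shift roots at 60 mM, beside 0.0088 and -0.0026 over all genes tested. Leaving out 1 library at a time left 2 to 6 called higher in shift 60 mM roots and 6 to 7 in long-term 60 mM roots; in shift 60 mM roots the lowest count, 2, came without isoxaben replicate 3, mock replicate 1 or mock replicate 3, and 3 without isoxaben replicate 2 or mock replicate 2. DIN10, a raffinose synthase-like gene of this group, rose from 42.5 to 161 CPM in long-term 60 mM roots (log2 difference 1.92, SE 0.21, edgeR adjusted p = 1.29e-06) and from 34.9 to 142 CPM in shift 60 mM roots (2.03, SE 0.21, edgeR adjusted p = 2.42e-06). It overlaps AT5G20260 on the opposite strand. DIN2, a beta-glucosidase gene, rose in long-term 60 mM roots from 0.669 to 5.10 CPM (log2 difference 2.92, SE 0.67, edgeR adjusted p = 0.00219). The rise of DIN2 was not shared by shift 60 mM roots, as its long-term effect minus the shift effect was 3.97 (SE 0.93, edgeR adjusted p = 0.00827).

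The bZIP factors are transcription factors, several of which are known to bind the ASN1 and ProDH1 promoters in Arabidopsis. bZIP53 rose from 57.5 to 73.4 CPM in long-term 60 mM roots (log2 difference 0.35, SE 0.06, edgeR adjusted p = 5.29e-05). bZIP63 rose in shift 60 mM roots from 8.03 to 15.3 CPM (log2 difference 0.93, SE 0.18, edgeR adjusted p = 0.00103). In long-term 60 mM roots bZIP63 was at 12.7 CPM under mock and 13.0 CPM under isoxaben. Its long-term isoxaben effect minus the shift effect at 60 mM was -0.90 (SE 0.26, edgeR adjusted p = 0.0233). bZIP11 fell in long-term 6 mM roots from 39.2 to 32.1 CPM (log2 difference -0.29, SE 0.06, edgeR adjusted p = 0.00471). In mock roots higher KNO3 called 0 of the 13 higher and 2 lower in the long-term groups. In the shift groups it called 0 higher and 3 lower. Of all genes tested, 6.77% were called in the long-term and 8.20% in the shift comparison. DIN10 and bZIP63 were called lower in both, with DIN10 log2 differences of -0.99 and -1.32 and bZIP63 log2 differences of -0.62 and -1.19 (edgeR adjusted p from 0.000165 to 0.0316).

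**Figure D4:**
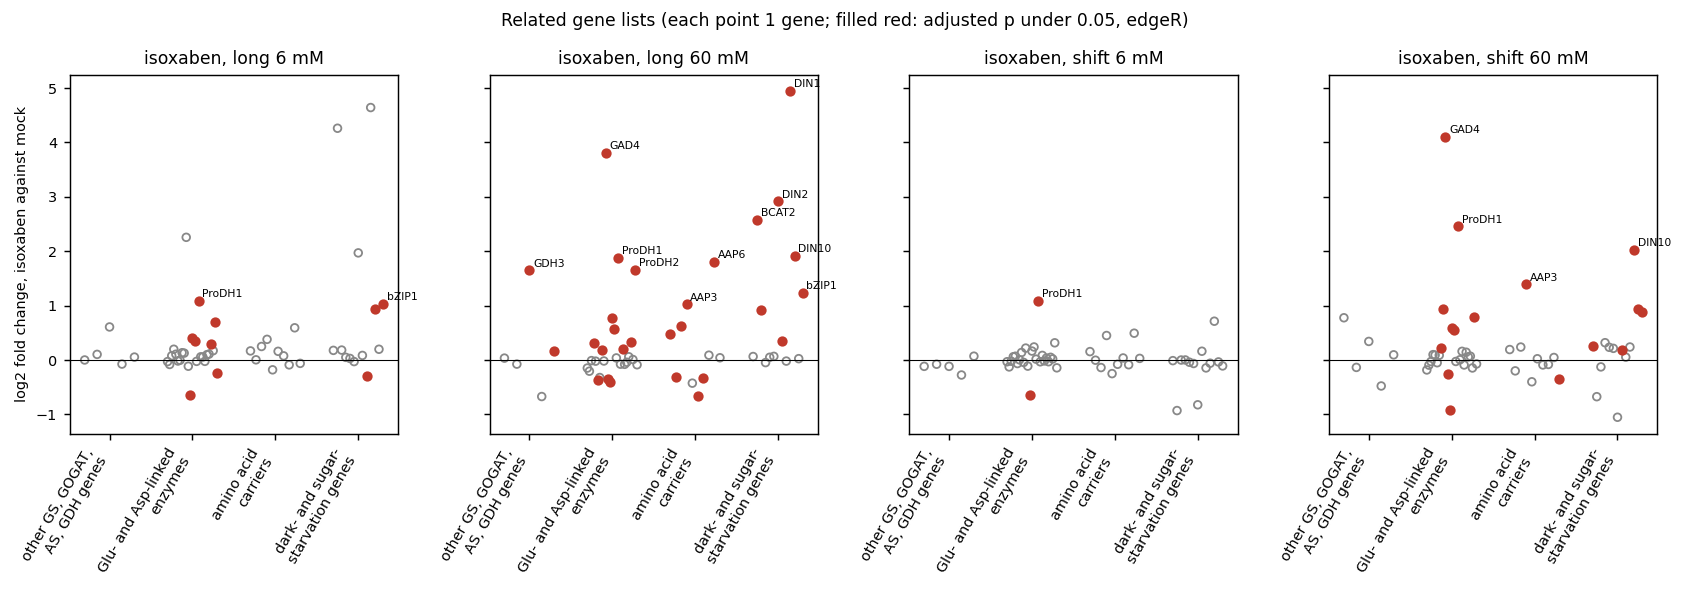
Log2 differences of the listed pathway genes (points) in the 4 isoxaben effects, with filled points for those past an edgeR adjusted p under 0.05. In long-term 60 mM roots 9 of the 25 glutamate- and aspartate-linked enzymes and 7 of the 13 dark- and sugar-starvation genes are called higher. Of all genes tested, 16.0% are called higher there. The lists were chosen with earlier results of these data known.

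Ordered by mean, ASN1 ran from long-term 6 mM mock, shift 6 mM mock and long-term 60 mM mock at 0.605 to 1.16 CPM, through shift 6 mM isoxaben, shift 60 mM mock and long-term 6 mM isoxaben at 2.06 to 7.36 CPM, to shift 60 mM isoxaben at 28.1 and long-term 60 mM isoxaben at 61.4 CPM. Neighbours overlapped up to long-term 6 mM isoxaben, and only the last 2 steps separated groups without overlap. Among 16204 candidate genes, the log2 CPM of ABCC3 (r = 0.940), GSTF2 (r = 0.915) and AT2G18150 (r = 0.913) was most like that of ASN1 by Pearson r over the 24 libraries. ABCC3 is a transporter of the ABC class and GSTF2 a glutathione transferase. For GDH2 the closest were AT1G22440 (r = 0.966), AT4G24340 (r = 0.961) and AT1G71695 (r = 0.955). For GLN1;4 they were AT2G24580 (r = 0.9004), the G-box binding factor gene GBF2 (r = 0.894) and IGMT3 (r = 0.894), of which IGMT3 shares 44.7% of its exon windows with other sites. These values describe libraries that share the same 8 groups.

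Within the set, the pairs most alike over the 24 libraries were GLN1;2 with GLT1 (r = 0.87), GLN1;1 with GLN2 (r = 0.85), GLN1;4 with GDH1 (r = 0.791) and ASN1 with GDH2 (r = 0.758). GLT1 and GDH2 ran opposite to each other (r = -0.748). These are descriptions over samples that fall into treatment groups.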

How the data were processed

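Polyadenylated root RNA of 24 samples was made into libraries for DNBSEQ sequencing, per the labels' protocols. Raw gene counts, whole numbers in 1 column for each library, were deposited by the authors and are the unit of every test. The submitters' processing notes name STAR 2.7.9a, DESeq2 1.32.0 and the build TAIR10. The annotation, the strand setting and how multiply matching reads were handled are not given in the sources used here, so reads of a gene and its antisense partner cannot be told apart. A normalised table was also deposited and not used.

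Sample titles gave the groups and replicate numbers. The main test was edgeR's quasi-likelihood test (edgeR 4.0.16, R 4.3.3). The filterByExpr filter over 8 groups kept 20546 genes holding 99.96% of the counts, and TMM factors ranged from 0.939 to 1.035. A robust fit of 8 group means used all 24 libraries, leaving 16 residual degrees of freedom, and 12 contrasts were tested. A gene was called at a Benjamini-Hochberg adjusted p under 0.05 over all genes tested. Every adjusted p of a gene is from this test unless DESeq2 is named. Counts at an unadjusted p under 0.05 have no share over all genes beside them. Log2 differences used a prior count of 0.125, and their SE is the absolute difference divided by the square root of F, an approximation. Spread was estimated jointly over the groups. CPM used the TMM-adjusted library size, and the limit set by an observed count of 0, taken as 3 counts, was at most 0.167 CPM, for counting error only. 

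The members and the gene lists were chosen with earlier results of these data known. All 10 members were named in the main comparisons. Of each list at most 4 called genes per comparison could be named, those with the largest absolute log2 difference whose mean reached 5 CPM in either group. For the 3 members with the widest span of group means (log2 CPM with a prior count of 2), the 3 genes with the highest Pearson r were named. Shares and ratios used CPM per kilobase of the union of exons in TAIR10.1, and were compared with exact two-sided permutation tests over 16 comparisons. Promoters, coding identity and recurring 50-base windows came from TAIR10.1 with Biopython 1.88. Alternatives were scaling by library size alone, no filter, a term for the replicate number, DESeq2 1.42.0, only the compared groups, and leaving out each library. The edgeR steps were tested on simulated data.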

Additional observations from a re-analysis of the deposited data

Results flagged for a closer look

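The isoxaben effect differed between groups, by a test of the difference itself in edgeR, for 4 members and 7 member comparisons. Between KNO3 levels in the long-term groups, the log2 effect at 60 minus that at 6 mM was -0.56 for GLN1;2 (adjusted p = 0.0493), -0.39 for GLT1 (adjusted p = 0.0141), -0.37 for GDH1 (adjusted p = 0.0366) and 0.39 for GDH2 (adjusted p = 0.00248). The GDH1 difference joins an effect of 0.25 at 6 mM and one of -0.12 at 60 mM, neither of which was called by edgeR. Between KNO3 levels in the shift groups the difference was 0.34 for GDH2 (adjusted p = 0.0217). Between exposures at 60 mM, long-term minus shift, it was -0.39 for GLT1 (adjusted p = 0.0134) and 0.33 for GDH2 (adjusted p = 0.0106). GDH2 was thus past the threshold in 3 of the 4 interactions, which share libraries with each other.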

How the results depend on the processing

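Of 1559 alternative values of the member log2 differences, 1497 kept their direction and side of the threshold or were called in neither fit, 45 lost a call, 17 gained one and 0 reversed a called direction; 74 changed sign where neither fit called them. With DESeq2, 2 members in place of 1 were called for long-term isoxaben at 6 mM and 1 in place of 0 for shift against long-term mock at 60 mM, and 3 in place of 2 for KNO3 in shift mock roots. Scaling by library size alone called 3 in place of 2 for the isoxaben effect between exposures at 60 mM, adding GLN1;2 (log2 difference -0.48, adjusted p = 0.0417). With only the compared groups, the count was 2 in place of 1 for long-term isoxaben at 6 mM, 1 in place of 2 for shift isoxaben at 60 mM, 2 in place of 1 for KNO3 in long-term mock roots, 1 in place of 2 for KNO3 in shift mock roots, and 0 in place of 2 for the isoxaben effect between exposures at 60 mM. Without the filter KNO3 in shift mock roots called 1. The long-term interaction with KNO3 called 3 in place of 4 without the filter and also with only the compared groups, GLN1;2 being lost in each. The fits of compared groups have fewer residual degrees of freedom. What changed the counts was not tested for any of these fits. The fit with a replicate block called 1 for KNO3 in shift mock roots (GDH2 adjusted p = 0.0589) and lost GLN1;2 in the long-term interaction (0.0543), and it changed no other member call. The correlations of same-numbered deviations from group means were between -0.12 and 0.134, and those of other numbers reached 0.196. With 3 libraries in a group this check cannot exclude a shared plate or batch. The main fit did not pair samples by number.

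Leaving out 1 library at a time gave 1 to 2 called members for long-term isoxaben at 6 mM, 5 to 6 at 60 mM, 0 to 0 for shift isoxaben at 6 mM and 2 to 3 at 60 mM. It gave 0 to 1 for KNO3 in long-term and 1 to 4 in shift mock roots, and 0 to 0 and 0 to 1 for shift against long-term mock at 6 and 60 mM. For the interactions with KNO3 it gave 2 to 4 in the long-term and 0 to 1 in the shift groups, and for those with exposure 0 to 0 at 6 mM and 1 to 3 at 60 mM. Among the lists, the dark- and sugar-starvation genes called higher were 4 in place of 2 in long-term 6 mM roots with DESeq2 and 1 to 3 on leaving out a library, 3 in place of 5 in shift 60 mM roots without the filter or with only the compared groups, and those called lower by KNO3 in long-term mock roots 1 in place of 2 without the filter. Leaving out a library also gave 3 to 5 glutamate- and aspartate-linked enzymes higher in long-term 6 mM roots and 1 to 2 further family members higher in long-term 60 mM roots. For the glutamate- and aspartate-linked enzymes in long-term 60 mM roots it gave 7 to 8 higher in place of 9 and 3 to 5 lower in place of 3. ASN1 could not be tested for shift against long-term mock at 6 mM with only the compared groups, where it failed the filter. ASN1 in mock roots rests on as few as 5 counts, which limits its differences more than those of the other members.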

Other observations

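Amino acid carriers, which move glutamine and other amino acids across membranes, changed in both directions. Of 10 tested carriers from a list of 11, long-term isoxaben at 60 mM called 4 higher and 3 lower, with a median log2 difference of 0.07. Of all genes tested, 16% were called higher and 15.8% lower in that comparison, with a median of 0.0088. AAP6 rose from 2.92 ± 0.618 to 10.3 ± 3.14 CPM (log2 difference 1.80, SE 0.24, edgeR adjusted p = 2.88e-06, n = 3 each). AAP3 rose from 20.6 to 42.0 CPM there and from 22.3 to 58.5 CPM in shift 60 mM roots (log2 differences 1.02 and 1.39, edgeR adjusted p = 4.20e-05 and 2.11e-06), and it overlaps AT1G77370 on the opposite strand. GDU1, a regulator of glutamine export, fell from 28.2 to 17.9 CPM in long-term 60 mM roots (log2 difference -0.66, SE 0.09, edgeR adjusted p = 1.88e-06). At 6 mM edgeR and DESeq2 called 0 carriers in either exposure, with 3 and 2 at an unadjusted p under 0.05 in long-term and shift roots, and 3 were called in long-term roots with only the compared groups in the fit. Of all genes tested, the main fit called 5.69% in long-term and 0.949% in shift roots at 6 mM.

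GAD4, a glutamate decarboxylase gene, was near the detection limit in mock roots at 60 mM, at 0.356 and 0.691 CPM in long-term and shift roots, and was at 5.13 and 12.0 CPM under isoxaben (log2 differences 3.807 and 4.103, edgeR adjusted p = 1.93e-05 and 1.74e-06). It overlaps AT2G04155 on the opposite strand and 2.2% of its exon windows recur elsewhere.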
